A study of Mus musculus with 17 samples.

Results

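Transcripts of 10 secreted or membrane proteins, grouped here as products of the choroid plexus and the meninges, were followed in ribosome-bound RNA from the mouse corpus callosum. These tissues make and surround the cerebrospinal fluid. Several of the proteins are also made by glia, as described below, so the group is not a specific measure of those tissues. The genes are Ttr, Enpp2, Clic6, Folr1, Kl, Ptgds, Dcn, Apod, Igf2 and Igfbp2, 10 of the 52373 gene identifiers counted in every library. They were chosen by name with their levels in these libraries known, including the spread among the 5.5-week cuprizone libraries and the differences between cuprizone and mock at each week. Those levels and differences are therefore given below as descriptions, and no test of a chosen gene is offered as support.

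The labels describe male mice of genotype GFAP-Cre+/- Rpl22HA/wt, aged 8 to 9 weeks when feeding began, which carry the RiboTag allele in mock and cuprizone groups alike. RiboTag is an HA-tagged form of the ribosomal protein Rpl22 that appears where Cre is active, so that ribosomes of Cre-expressing cells and the RNA on them can be pulled down with an antibody to HA. Cre was driven by a GFAP promoter, which is used to reach astrocytes and can also be active in other cells of neural origin, depending on the line. Cuprizone is a copper chelator that kills oligodendrocytes. It was mixed into chow at 0.2% by weight for 5 weeks, and mice were sampled at the end of feeding (5 weeks), after 0.5 weeks on normal chow (5.5 weeks) or after 2 weeks on normal chow (7 weeks). Age-matched mice on normal chow were the mock controls at each of the 3 times. The stated purpose was to follow astrocytes through demyelination and myelin repair. No library of unselected RNA was used here, so it is not known how far each transcript was enriched by the pull-down.

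The choroid plexus is an epithelium inside the ventricles that secretes cerebrospinal fluid and its proteins. Transthyretin (Ttr), its best-known product, carries thyroid hormone and the retinol-binding protein. Clic6 encodes a chloride channel-like protein of secretory epithelia, Folr1 the folate receptor that moves folate into the cerebrospinal fluid, Kl the FGF23 co-receptor klotho, and Enpp2 autotaxin, the enzyme that makes lysophosphatidic acid and is also made by oligodendrocytes. Ptgds, lipocalin-type prostaglandin D synthase, is made by the leptomeninges, the choroid plexus and oligodendrocytes. Apod encodes apolipoprotein D, another lipocalin, made by glia and perivascular cells. Dcn encodes decorin, a proteoglycan of fibroblasts. Igf2 and Igfbp2 encode a growth factor of the meninges and choroid plexus and a binding protein for insulin-like growth factors, which astrocytes also make.

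Of the 17 deposited libraries, 9 were used. In each of the other 8, between 46.6% and 96.2% of the genes with 500 or more counts had the value of another library of the same group plus 1 to 10, so those columns were not treated as separate mice. This left cuprizone replicates 1, 2 and 3 against mock replicates 1 and 3 at 5.5 weeks, and 1 library of each kind at 5 weeks (cuprizone 1, mock 2) and 7 weeks (cuprizone 2, mock 3). The 9 libraries held 20797535 to 30400048 counts. The 7-week cuprizone library stood apart: it had counts for 34576 genes against at most 23980 in the others, and 0.526% of its counts on mitochondrial genes against at most 0.0594%. The 5-week libraries were a batch of their own by the labels, with 4329 and 4351 genes at 1 to 10 counts against 7727 to 8205 in the 5.5-week libraries, so time and batch cannot be told apart in any comparison of 5 weeks with later weeks. Gfap, the marker of reactive astrocytes, was 5425 ± 577 CPM (SD, n = 3) after cuprizone and 1146 ± 43.5 (SD, n = 2) in mock at 5.5 weeks (log2 2.24 ± 0.13, adjusted p = 8.59e-06 by edgeR's quasi-likelihood test).

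RefSeq promoters (GRCm38.p6) matched 5 of the 10 genes: Ptgds, Apod, Igfbp2, Kl and Igf2. The 250 bases before the start are shown for Ptgds and Apod, the pair of lipocalins that moved in opposite directions at 5.5 weeks, and for the first listed start of Igfbp2, which was lower together with Ptgds. Ptgds lies at chr2:25469750-25469999 on the minus strand, Apod at chr16:31314809-31315058 on the minus strand and Igfbp2 at chr1:72824230-72824479 on the plus strand. Capitals mark matches, on either strand, to any of 4 motifs. The TATA box was searched for as TATAAA, the E-box as CANNTG, the binding motif of the factor AP-1 as TGAGTCA and the GC box as GGGCGG; no match of one overlapped a match of another.
Ptgds: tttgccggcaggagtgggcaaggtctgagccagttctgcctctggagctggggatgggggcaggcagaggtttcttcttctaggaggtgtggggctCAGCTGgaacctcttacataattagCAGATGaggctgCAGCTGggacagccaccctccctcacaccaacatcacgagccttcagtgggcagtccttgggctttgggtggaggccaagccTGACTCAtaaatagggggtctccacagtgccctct
Apod: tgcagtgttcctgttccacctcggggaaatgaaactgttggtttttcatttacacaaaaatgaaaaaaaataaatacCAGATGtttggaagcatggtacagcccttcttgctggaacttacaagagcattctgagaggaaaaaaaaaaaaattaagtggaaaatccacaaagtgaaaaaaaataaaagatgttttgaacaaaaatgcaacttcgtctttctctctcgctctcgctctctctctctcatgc
Igfbp2: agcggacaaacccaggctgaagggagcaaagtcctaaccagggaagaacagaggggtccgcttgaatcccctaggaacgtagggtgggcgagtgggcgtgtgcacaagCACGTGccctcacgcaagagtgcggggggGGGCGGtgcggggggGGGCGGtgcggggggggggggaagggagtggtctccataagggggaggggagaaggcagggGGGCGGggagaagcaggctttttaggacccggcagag
The Ptgds sequence held 3 E-box matches and 1 AP-1 match, the Apod sequence 1 E-box match, and the Igfbp2 sequence 3 GC-box matches and 1 E-box match. The other listed start of Igfbp2, not shown, differed, with 1 AP-1 match, 1 E-box match and no GC-box match. Among all 32851 RefSeq promoters cut to the same length, 66.2% held an E-box match, 32.7% a GC-box match, 12.4% a TATA-box match and 4.46% an AP-1 match. None of the 3 sequences held TATAAA. G and C made up 58.4% of the Ptgds, 36.4% of the Apod and 67.2% of the Igfbp2 sequence. These matches describe the letters and are not evidence of binding.

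Levels are given in CPM, read counts relative to the library's total scaled by TMM within each week. Per kilobase of exon, Ptgds was the highest of the 10 genes in the 5.5-week mock libraries, at 177 and 183 CPM per kb. Enpp2 followed at 80.4 and 67.3, Apod at 67.7 and 65.2 and Igfbp2 at 32.5 and 30.0, and the ranges of Enpp2 and Apod overlapped. Dcn had 7.65 and 3.96, Ttr 1.02 and 1.31, and Kl 1.07 and 0.887 CPM per kb, with Ttr and Kl overlapping. Folr1 (0.196 and 0.226), Clic6 (0.124 and 0.247) and Igf2 (0.0121 and 0.00649) were lowest, with Folr1 and Clic6 overlapping. In the 5.5-week cuprizone libraries Ttr stood at 7.97, 17.4 and 27.3 CPM per kb.

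**Figure D1:**
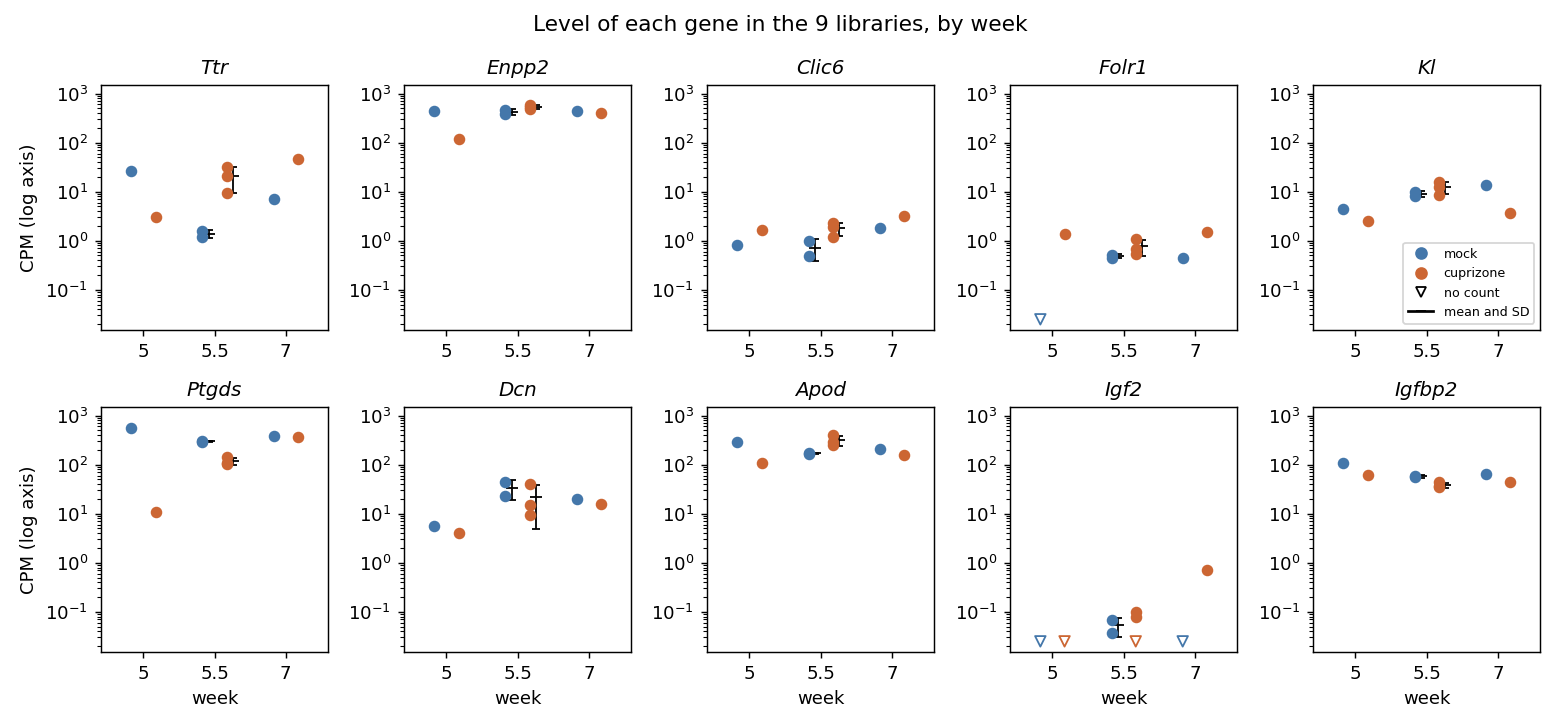
Level of each of the 10 genes in the 9 libraries, in CPM on a log axis, by week, with mock and cuprizone side by side. Points are libraries, open triangles libraries with no count, and bars the mean and SD of groups of 2 or 3 libraries with no zero. Ttr is higher after cuprizone at 5.5 and 7 weeks and lower at 5 weeks, where its mock library stands at 26.7 CPM.

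At 5.5 weeks 9 of the 10 genes had enough counts to be fitted, and 4 of them passed an adjusted p of 0.05 in the fit of 16086 genes, of which 1.47% passed. Ttr and Apod were higher after cuprizone, as were 1.08% of all genes, and Ptgds and Igfbp2 were lower, as were 0.392%. The libraries of both groups did not overlap for 7 of the 9 genes, against 28.0% of all genes. Because these differences took part in choosing the genes, nothing is read from the counts. The median log2 fold change of the 9 genes was 0.42, beside 0.00 over all genes. At 5 weeks 4 of the 8 genes with a mean of at least 1 CPM were at least 2-fold lower after cuprizone (Ttr, Enpp2, Ptgds and Apod) and 0 were 2-fold higher, while 14.0% of 14075 genes were 2-fold lower and 10.9% higher. At 7 weeks 1 of 8 was 2-fold higher (Ttr) and 1 was 2-fold lower (Kl), while 15.9% of 15094 genes were higher and 4.01% lower. In a fit of the 9 libraries together, the difference between cuprizone and mock changed from 5 to 5.5 weeks for 5 of the 10 genes (Ttr, Ptgds, Apod, Enpp2 and Folr1), beside 23.2% of all genes, and from 5.5 to 7 weeks for 3 (Ptgds, Apod and Kl), beside 17.2%. The 5-week and 7-week comparisons hold 1 library a group and have no replicate check. Their 95% Clopper-Pearson intervals below cover counting error only, and reads from amplified libraries without molecular identifiers are not independent molecules. In these data from bulk RNA, fewer cells of a type and less RNA per cell cannot be told apart.

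**Figure D2:**
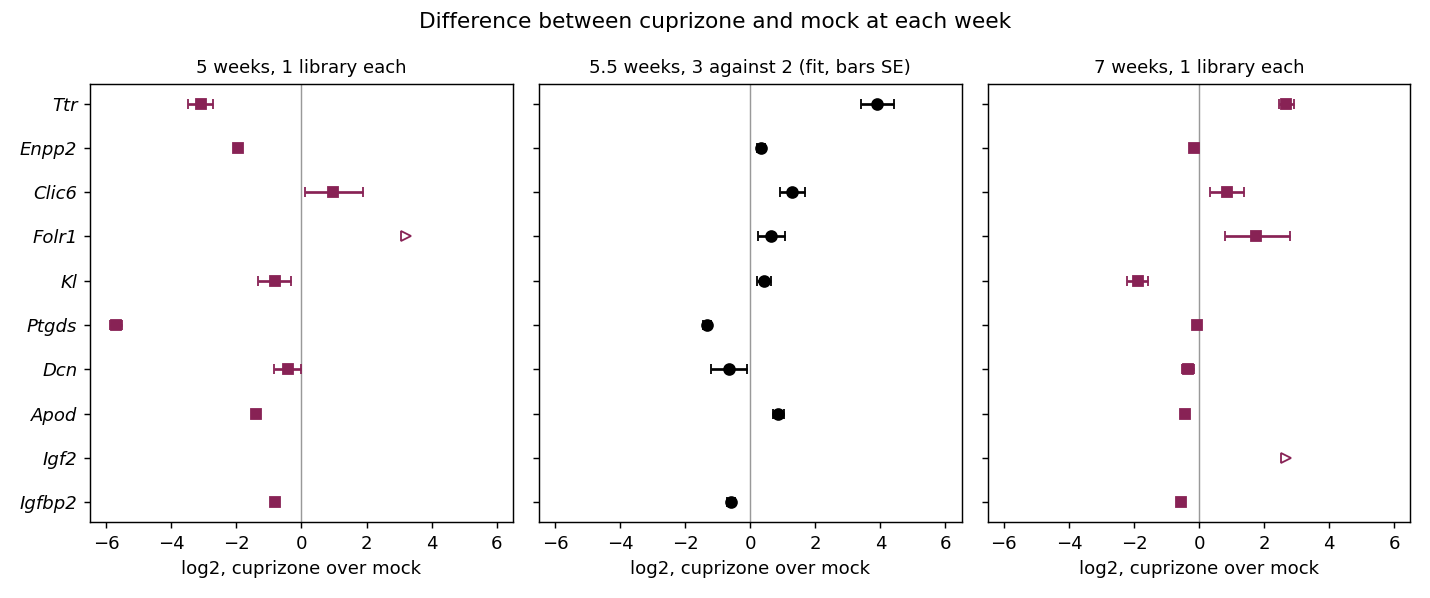
Difference between cuprizone and mock for each gene, on a log2 scale. Squares at 5 and 7 weeks are ratios of 1 library to 1 library with 95% counting intervals, circles at 5.5 weeks are fitted log2 fold changes with standard errors, and open triangles are lower bounds where mock had no count. Ptgds lies at -5.68 at 5 weeks, -1.33 at 5.5 weeks and -0.06 at 7 weeks.

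Ttr had the largest difference of the 9 fitted genes at 5.5 weeks. Its level was 9.46, 20.7 and 32.4 CPM in cuprizone replicates 1, 2 and 3 and 1.21 and 1.56 CPM in mock replicates 1 and 3, so the lowest cuprizone library stood well above both mock libraries. The means were 20.8 ± 11.5 CPM (SD, n = 3) and 1.39 ± 0.245 CPM (SD, n = 2), with a fitted log2 fold change of 3.91 ± 0.51. The direction was reversed at 5 weeks, with 67 counts (3.11 CPM) after cuprizone and 546 counts (26.7 CPM) in mock, 8.57-fold lower (interval 6.64 to 11.2). At 7 weeks the cuprizone library had 1295 counts (46.3 CPM) and the mock library 193 (7.21 CPM), 6.43-fold higher (5.52 to 7.52). The mock level alone therefore differed widely between weeks, from 1.21 CPM in a 5.5-week library to 26.7 CPM in the 5-week library. The call at 5.5 weeks was lost without mock 1 (adjusted p = 0.0752 by edgeR), without mock 3 (0.059) and without cuprizone 2 (0.143), in each case with a log2 fold change of 3.73 to 4.11.

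Defining markers of the choroid plexus epithelium had few counts at 5.5 weeks, at most 22 for Kcnj13, Aqp1 and Otx2. Kcnj13, an epithelial potassium channel, had no count in the 5.5-week mock libraries and 2, 5 and 15 counts in cuprizone replicates 1, 2 and 3, where Ttr had 280, 458 and 844 counts. Cuprizone replicate 3 was the highest for both genes and replicate 1 the lowest. Aqp1, the water channel of the plexus, had 22, 11 and 22 counts after cuprizone and 19 and 4 in mock. Otx2, a transcription factor of the plexus, had 15, 13 and 17 against 16 and 5, and Sostdc1, a secreted inhibitor, 125, 92 and 92 against 116 and 85, so these 3 overlapped between the groups. Summed over the 26 genes of a choroid plexus list that leaves out the 10, the level was 88.3 to 114 CPM in cuprizone and 72.5 to 96.9 CPM in mock libraries at 5.5 weeks, ranges that overlap. This sum mostly follows Car12, Spint2 and Msx1, which had 911, 880 and 488 counts in mock 1, the most of the list. Of its 19 genes with enough counts, 1 rose and 0 fell: 1500015O10Rik, which encodes the secreted peptide augurin, at 6.30 ± 0.704 CPM (SD, n = 3) against 1.45 ± 0.781 (SD, n = 2), log2 2.12 ± 0.30, adjusted p = 0.00464 by edgeR. Their median log2 fold change was 0.62, and 6 had an unadjusted p under 0.05, beside 1754 of 16086 genes. List genes with few counts in mock, such as Tmem72, passed the filter on low counts only through the cuprizone libraries. The filter thus favours a median above that of all genes. Some list genes stood higher in all 3 cuprizone libraries than in mock, such as Calml4 (22, 42 and 34 counts against 15 and 18), Slc13a4 (28, 28 and 28 against 18 and 22) and Tmem72 (4, 12 and 12 against 2 and 2). Others overlapped, such as Cldn1 (6, 18 and 38 against 75 and 33) and Spint2 (510, 531 and 672 against 880 and 648). Cuprizone replicate 3 held the highest level of the 3 cuprizone libraries for 9 of the 19, replicate 2 for 7 and replicate 1 for 3, beside 30.5%, 39.4% and 30.0% of all genes. The part of choroid plexus RNA in the Ttr difference was not tested.

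**Figure D3:**
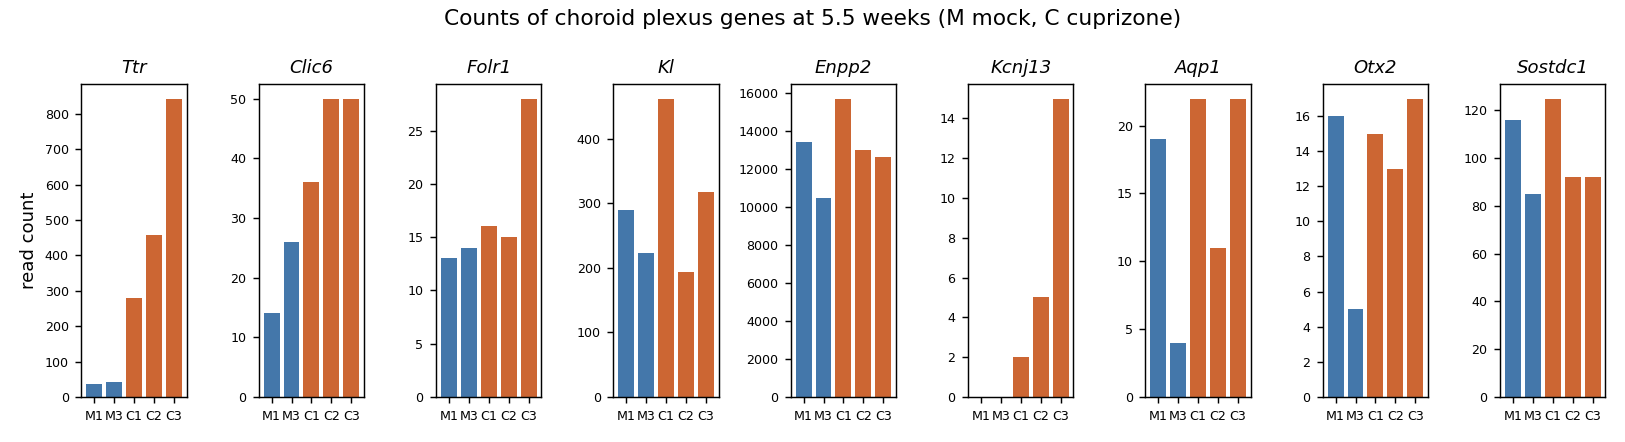
Read counts of the choroid plexus members (Ttr, Clic6, Folr1, Kl and Enpp2) and of 4 defining markers (Kcnj13, Aqp1, Otx2 and Sostdc1) in the 5 libraries at 5.5 weeks, with mock replicates 1 and 3 and cuprizone replicates 1 to 3. Kcnj13 has 15 counts where Ttr has 844. The counts are not scaled for depth.

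At 7 weeks the same markers were not uniform either. Kcnj13 had 19 counts after cuprizone and 0 in mock, Otx2 121 and 15, and Aqp1 19 and 4, while Sostdc1 had 65 and 109. Of the 12 choroid list genes with a mean of at least 1 CPM, 5 were at least 2-fold higher and 0 lower, with a median log2 ratio of 0.60. Over all genes 15.9% were higher and 4.01% lower. A gene low in mock can reach that mean through the cuprizone library alone. At 5 weeks, where Ttr was lower after cuprizone, Kcnj13 and Aqp1 had no count in either library, and Otx2 had 37 counts after cuprizone and 0 in mock. No choroid list gene of the 9 with a mean of at least 1 CPM was 2-fold lower there, and 2 were higher. Among these 2 was 1500015O10Rik, the list gene called at 5.5 weeks, at 11.6 CPM after cuprizone and 2.10 CPM in mock. Among list genes below that level, Prlr had 2 counts after cuprizone and 28 in mock, Tmem72 0 and 29, and Abca4 0 and 14. Steap1 (26 and 3) and F5 (6 and 0) went the other way, as did Otx2. The summed list, led there by Spint2 (398 and 698 counts), was 60.5 CPM after cuprizone and 67.9 in mock.

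Clic6 was low throughout. At 5.5 weeks it stood at 1.22, 2.26 and 1.92 CPM after cuprizone and 0.485 and 0.965 CPM in mock, with no overlap and a log2 fold change of 1.30 ± 0.38 that did not pass the threshold over all genes. It was 1.63 against 0.830 CPM at 5 weeks, 1.96-fold higher (1.07 to 3.73), and 3.22 against 1.79 CPM at 7 weeks, 1.80-fold higher (1.25 to 2.61). Clic6 was thus higher after cuprizone in each of the 3 comparisons.

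Folr1 rested on few counts. It had 16, 15 and 28 counts after cuprizone and 13 and 14 in mock at 5.5 weeks (0.764 ± 0.277 CPM, n = 3, against 0.485 ± 0.0492, n = 2, SD), a log2 fold change of 0.65 ± 0.42 that did not pass. At 5 weeks the 29 counts after cuprizone faced none in mock, at least 9.20-fold higher against a floor of 3 counts per library. The set-aside 5-week mock library listed 18 for Folr1, so that bound holds for the library used alone. At 7 weeks it had 42 counts against 12, 3.35-fold higher (1.73 to 7.00).

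Kl was lower after cuprizone at 5 and 7 weeks in the libraries used. Its 5.5-week levels of 15.6, 8.76 and 12.2 CPM after cuprizone overlapped with 10.01 and 8.28 CPM in mock, with a log2 fold change of 0.42 ± 0.22. At 5 weeks it was 2.51 against 4.40 CPM, 1.75-fold lower after cuprizone (1.24 to 2.503), and at 7 weeks 3.76 against 13.9 CPM, 3.70-fold lower (2.97 to 4.64). The set-aside 7-week cuprizone replicate 1 listed 356 for Kl against a base of 105, and the mean of the libraries as deposited gave a log2 ratio of -1.09 in place of -1.87.

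Enpp2 was far more abundant per kilobase than Ttr, Clic6, Folr1 or Kl. At 5.5 weeks it had 531, 587 and 485 CPM after cuprizone and 464 and 389 CPM in mock, a log2 fold change of 0.32 ± 0.12 that did not pass. At 5 weeks it was 116 CPM after cuprizone and 447 CPM in mock, 3.85-fold lower (3.68 to 4.03). At 7 weeks it was 405 and 451 CPM, a log2 ratio of -0.15 that became 0.21 when libraries were scaled by their total counts. Scaling by total counts moved the median of all genes at 7 weeks by 0.36 on the log2 scale, and one TMM scaling over all 9 libraries moved it by 0.12. The summed level of mature oligodendrocyte genes was 11183 CPM after cuprizone and 18283 CPM in mock at 5 weeks, 21697 to 26746 and 18616 to 19007 CPM at 5.5 weeks, and 16575 and 23948 CPM at 7 weeks. At 5 weeks 13 of the 18 oligodendrocyte genes were at least 2-fold lower (median log2 ratio -1.72). The part of oligodendrocyte RNA in the Enpp2 values was not tested.

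Ptgds differed most at 5 weeks. The cuprizone library had 229 counts (10.6 CPM) and the mock library 11278 (551 CPM), 51.8-fold lower (45.4 to 59.3). At 5.5 weeks the level was 110, 140 and 104 CPM after cuprizone and 291 and 302 CPM in mock, with no overlap. The means were 118 ± 19.3 CPM (SD, n = 3) and 297 ± 7.80 CPM (SD, n = 2), with a log2 fold change of -1.33 ± 0.13. At 7 weeks the counts were 10061 and 10063, which is 360 and 376 CPM and a log2 ratio of -0.06. The sign of that last difference depends on the scaling, since it was 0.30 with total counts and 0.06 with one TMM scaling over the 9 libraries. Ptgds passed the threshold at 5.5 weeks in the 16 alternative fits run, with log2 fold changes from -1.47 to -1.25.

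Apod, the other lipocalin, moved differently. At 5.5 weeks it had 247, 399 and 292 CPM after cuprizone and 175 and 168 CPM in mock, with no overlap and a log2 fold change of 0.87 ± 0.17. The call was lost without mock 1 (adjusted p = 0.167 by edgeR) and without mock 3 (0.234). At 5 weeks Apod was 111 against 294 CPM, 2.65-fold lower after cuprizone (2.53 to 2.78). At 7 weeks it was 157 against 210 CPM, 1.34-fold lower (1.29 to 1.40). Apod was thus above mock at 5.5 weeks, in all 3 cuprizone libraries, and below it at 5 weeks. At 7 weeks it was below mock by a margin that depends on the scaling. The summed oligodendrocyte level given above lay on the same side of mock at each week. The part of oligodendrocyte RNA was not tested for Ptgds or Apod.

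Dcn varied most among the cuprizone libraries of the 9 genes fitted at 5.5 weeks. At 5.5 weeks it had 15.0, 9.25 and 40.5 CPM after cuprizone and 44.6 and 23.1 CPM in mock, and the groups overlapped. The log2 fold change was -0.65 ± 0.55, and it ranged from -1.48 without cuprizone 3 to -0.10 without mock 1. At 5 weeks it was 4.14 against 5.52 CPM, 1.33-fold lower (1.00 to 1.78), and at 7 weeks 16.0 against 20.4 CPM, 1.27-fold lower (1.12 to 1.45), which became a log2 ratio of 0.01 with total counts. Other fibroblast genes went the other way at 7 weeks: the collagen gene Col1a1 had 266 counts against 17, Col1a2 231 against 39, the proteoglycan gene Lum 55 against 5 and the transporter gene Slc6a13 232 against 13. Of 18 meningeal fibroblast genes with a mean of at least 1 CPM there, 15 were at least 2-fold higher and 0 lower (median log2 ratio 2.36). Over all genes 15.9% were higher and 4.01% lower. Genes low in mock, such as Foxc1 (3.22 against 0.0373 CPM), reached that mean only through the cuprizone library. The filter thus favours a high count and median, and no support is drawn from them.

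Igf2 had at most 3 counts in each 5.5-week library and was not fitted. It had no count in both 5-week libraries and in the 7-week mock library, and 20 counts in the 7-week cuprizone library, at least 6.39-fold higher against a floor of 3 counts. Igfbp2 was lower after cuprizone at each week. At 5.5 weeks it had 36.2, 43.8 and 35.0 CPM after cuprizone and 60.0 and 55.4 CPM in mock, with no overlap and a log2 fold change of -0.59 ± 0.13. Without any single library other than cuprizone 2, the adjusted p by edgeR was 0.147 to 0.194 with a log2 fold change of -0.63 to -0.53. Igfbp2 was 62.0 against 109 CPM at 5 weeks, 1.75-fold lower (1.64 to 1.88), and 45.2 against 65.8 CPM at 7 weeks, 1.45-fold lower (1.35 to 1.56).

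Genes of the pathways around the 10 mostly did not pass the test at 5.5 weeks. Of 10 genes of thyroid hormone and retinol handling, 0 rose and 1 fell: Slco1c1, a thyroxine transporter, at 20.9 ± 0.638 CPM (SD, n = 3) against 37.8 ± 5.06 (SD, n = 2), log2 -0.85 ± 0.13, adjusted p = 0.00722 by edgeR. Of 14 genes of the insulin-like growth factor pathway, 0 rose and 1 fell: Htra1, a protease that cleaves binding proteins, at log2 -0.58 ± 0.11 (adjusted p = 0.0204 by edgeR). Of 5 small leucine-rich proteoglycans other than Dcn, 1 rose and 0 fell: Bgn, encoding biglycan, at log2 1.03 ± 0.19 (adjusted p = 0.0216 by edgeR). No gene passed among 7 of the lysophosphatidic acid pathway, 8 of the prostaglandin pathway, 6 of folate uptake and use, 5 of klotho and FGF signalling and 3 further lipocalins. Of these lists, in that order, 2, 3, 0, 3 and 1 genes had an unadjusted p under 0.05, beside 1754 of 16086 genes. The most abundant gene of each, none of which passed, gave these fold changes: Plpp3, a lysophosphatidic acid phosphatase, at log2 -0.15 ± 0.14, Ptges3 at -0.31 ± 0.12, Ggh at 0.03 ± 0.13, Fgf1 at -0.34 ± 0.13 and Rbp4 at -0.24 ± 0.19. The lists' medians lay between -0.34 and 0.37, beside 0.00 over all genes.

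At 5.5 weeks 2 of 15 meningeal fibroblast genes rose and 0 fell: the transcription factor gene Foxc1 (log2 3.29 ± 0.63, adjusted p = 0.0234 by edgeR) and Cyp1b1, a cytochrome that metabolises retinol and steroids (1.63 ± 0.28, adjusted p = 0.0138 by edgeR). Neither call held without mock 1 or without mock 3. Foxc1 rested on few counts, 16, 15 and 13 after cuprizone against 2 and 1 in mock. It passed the filter on low counts only through the cuprizone libraries, so no support is drawn from its rise. The meningeal list summed to 76.8 to 77.4 CPM after cuprizone and 64.4 to 74.0 CPM in mock. Of 18 mature oligodendrocyte genes 3 rose and 2 fell, but 0 were called without mock 3 and 1 without cuprizone 1. The 3 with the largest change were Anln (-1.09 ± 0.19, adjusted p = 0.0182), Ugt8a, which makes the myelin lipid galactosylceramide (0.85 ± 0.16, adjusted p = 0.0275), and Aspa (-0.80 ± 0.14, adjusted p = 0.0137), all by edgeR. Gpr17, a receptor of committed oligodendrocyte precursors, rose as 1 of 10 precursor genes (log2 0.94 ± 0.14, adjusted p = 0.00596 by edgeR). No gene passed among 11 ependymal, 8 endothelial, 6 mural, 11 microglial and 12 neuronal genes. Of these lists, in that order, 2, 0, 0, 6 and 0 genes had an unadjusted p under 0.05, beside 1754 of 16086 genes. At 7 weeks all 12 endothelial genes (median log2 ratio 5.57), all 12 microglial genes (4.03) and 8 of 9 mural genes (3.69) were at least 2-fold higher in the cuprizone library, which is the library that stood apart in gene number and mitochondrial share. The endothelial list summed to 489 CPM there against 28.1 CPM in mock. Over all genes 15.9% were at least 2-fold higher at 7 weeks. Only genes with a mean of at least 1 CPM were counted, which a gene low in mock can reach through the cuprizone library alone. The part of these cell types in the 7-week Ttr, Folr1 and Igf2 values was not tested.

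**Figure D4:**
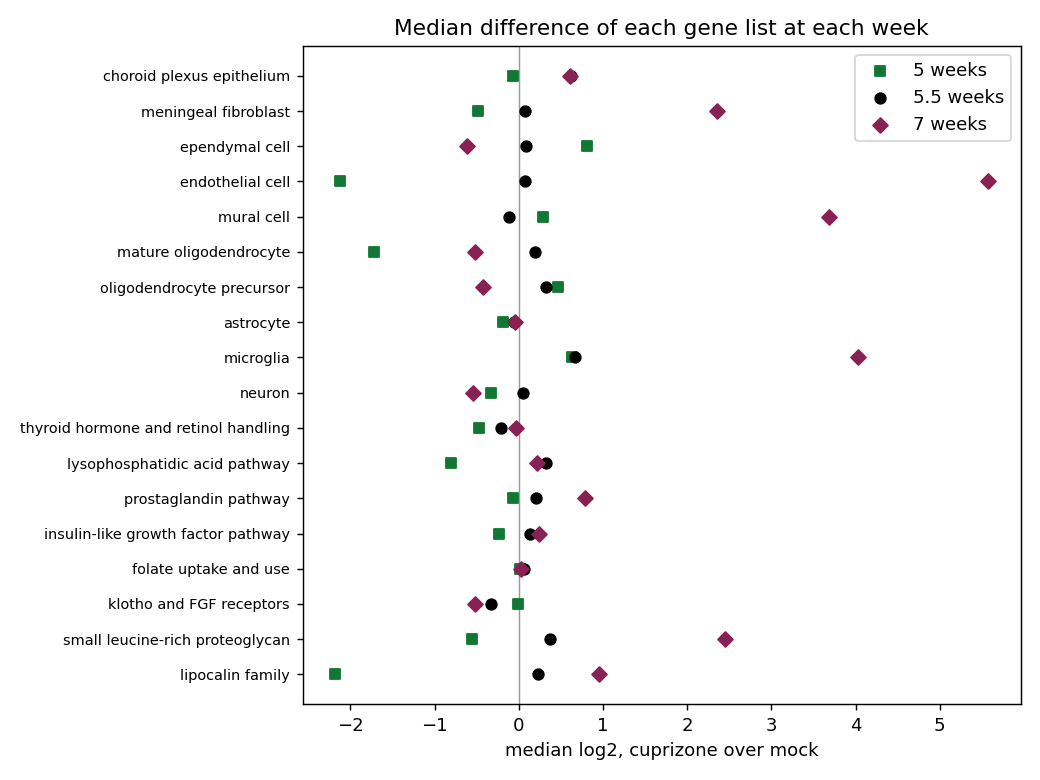
Median log2 difference between cuprizone and mock of each gene list, with one symbol for each week. The 10 members are left out of the lists. At 7 weeks the endothelial, microglial and mural lists lie at 5.57, 4.03 and 3.69. The choroid plexus list lies at 0.60 at 7 weeks (12 genes, ratios) and at 0.62 at 5.5 weeks (19 genes, fitted). The genes and the measure differ between these weeks, so the closeness of the 2 values is not read as a result.

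The spread among the 3 cuprizone libraries at 5.5 weeks differed between the genes. Dcn had a coefficient of variation of 77.0% and Ttr of 55.02%, larger than 100% and 99.8% of the 500 genes nearest in mean level, whose median was 8.22% and 8.26%. Apod (24.9%) and Kl (28.1%) exceeded 98.8% and 95.6% of their nearest genes, and Ptgds (16.4%) 92.4%. Clic6 (29.5%), Igfbp2 (12.4%), Folr1 (36.3%) and Enpp2 (9.60%) exceeded 66.8% to 83.6%. The libraries that set the spread were not the same: cuprizone 3 was highest for Ttr, Dcn and Folr1, cuprizone 2 for Apod, Ptgds, Igfbp2, Clic6 and Enpp2, and cuprizone 1 for Kl. Cuprizone 2 also held the highest level for 15 of the 18 oligodendrocyte genes.

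Over the 9 libraries, the genes with the pattern most like that of Ttr, by Pearson r of log2(CPM + 0.5) among 14211 genes, were Lrrtm2 (0.933), Htr2a (0.902), Tnfrsf1a (0.898), Tmtc3 (0.884) and Lgals3bp (0.882). Only genes with a mean of at least 1 CPM entered, which left out most of the choroid plexus list, Kcnj13 and Aqp1 included. The pattern of the genes left out is therefore not shown. No choroid plexus list gene was among the 5 closest, and the 11 of its 26 genes that entered had a median r of 0.257 with Ttr (range -0.153 to 0.668). For Ptgds the closest genes were Slc7a10 (0.989), a serine and alanine transporter of astrocytes, Alpl (0.984), Insig1 (0.983), 2700046A07Rik (0.980) and Srd5a1 (0.974). The 18 oligodendrocyte genes had a median r of 0.672 with Ptgds (range -0.340 to 0.934). The 9 libraries share weeks, batches and treatments, so these values describe likeness alone, and the names depend on the libraries: without the 7-week cuprizone library Htr2a and Lgals3bp were no longer among the 5 closest to Ttr, and within the 5.5-week libraries none of the 5 was.

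The columns set aside were not exact repeats for these genes, as for genes in general. Of 68 values of the 10 genes whose base library had at least 20 counts, 18 (26.5%) lay outside 0 to 10 above the base, beside 24.2% of such values over all genes. For Ttr these were 397 against a base of 67 in the 5-week cuprizone replicate 2, 2880 against 546 in the 5-week mock replicate 1 and 8349 against 1295 in the 7-week cuprizone replicate 1. Ptgds was listed at 527 and 680 in the 5-week cuprizone replicates 2 and 3 against a base of 229, and Dcn at 405 in the 5.5-week mock replicate 2 against 1289. Apod stayed within 0 to 10 of its base in the 8 columns. With the mean of the libraries as deposited, the log2 ratio at 5 weeks was -3.31 for Ttr, -4.64 for Ptgds and -1.69 for Dcn, and at 7 weeks 4.09 for Ttr.

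**Figure D5:**
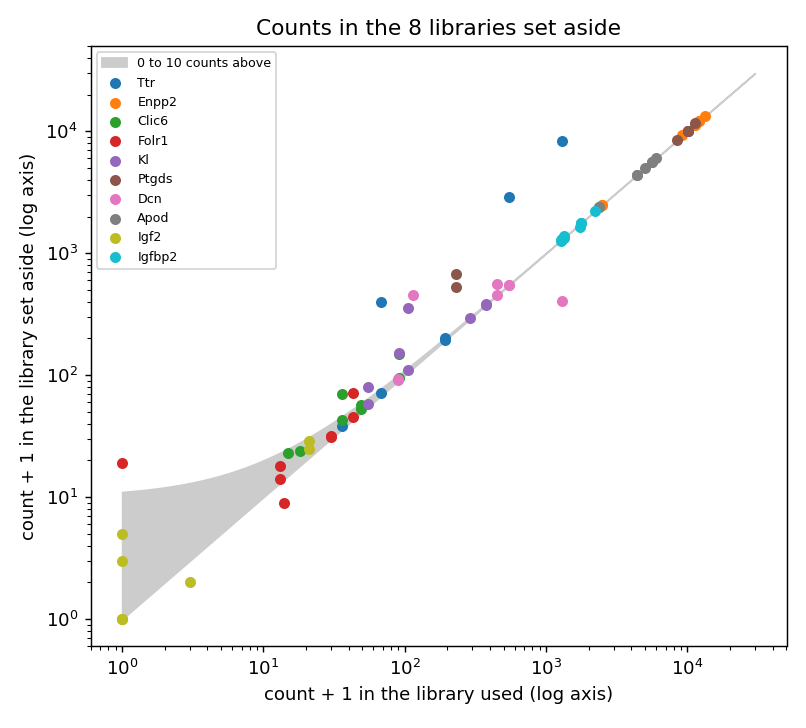
Values of the 10 genes in the 8 libraries set aside, against the library of the same group that each repeats, as count + 1 on log axes. The grey band is 0 to 10 counts above the base. Most points lie in the band, while Ttr lies above it in 3 libraries and Dcn below it in 1.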

How the data were processed

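Ribosome-bound RNA was sequenced from the corpus callosum of mice in 6 groups, 17 libraries in all. The deposited values are read counts per Ensembl gene, not normalized, made with FastQC 0.11.9, STAR 2.5.4b and featureCounts 1.6.0 per the submitters' processing notes. The notes name GRCm38 and GRCm39 without a role, so gene coordinates are not given apart from RefSeq promoters. The strand setting is not given in the sources used here, so overlapping genes may share reads. Symbols came from GENCODE M21.

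The 9 libraries that repeat no other were used, with 20797535 to 30400048 counts each. The other 8 deposited columns hold whole numbers of no stated unit and enter alternatives and single values only. At 5.5 weeks low genes were removed by filterByExpr with a minimum count of 10, TMM set the scaling, and edgeR 4.0.16 gave the test (quasi-likelihood F test, two-sided, Benjamini-Hochberg over all genes, threshold 0.05; R 4.3.3). The labels name the libraries biological replicates, and p-values reflect only how far these few varied. At 5 and 7 weeks log2 ratios used a prior count of 2, with no test. DESeq2 1.42.0 and limma 3.58.1 were alternatives. The fit was tested on simulated data.

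The 10 genes, the gene lists and the tests were chosen with earlier results of these data known. Named genes are the 10 members, up to 3 called genes of each list (otherwise its most abundant gene), the 5 genes most like Ttr and Ptgds, and 8 defining markers. The added minimum of 5 CPM, the pattern without the 7-week cuprizone library or within 5.5 weeks, and the differences between weeks were chosen after seeing the data.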

Additional observations from a re-analysis of the deposited data

Results flagged for a closer look

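In a fit of the 9 libraries together, which lends the spread of the 5.5-week libraries to the single libraries of the other weeks, the difference between cuprizone and mock itself differed between weeks for several of the genes, with 23.2% of all genes passing for 5.5 against 5 weeks and 17.2% for 7 against 5.5 weeks. These contrasts took part in choosing the genes, so the values are descriptions. The log2 difference at 5.5 weeks exceeded that at 5 weeks by 7.07 for Ttr (adjusted p = 0.0321), 4.43 for Ptgds (5.23e-09), 2.34 for Apod (6.77e-05) and 2.34 for Enpp2 (8.57e-07), all by edgeR, and batch and week cannot be told apart here. For Folr1 it was -7.40 (adjusted p = 0.0052 by edgeR), a fitted value that depends on the prior count because the 5-week mock library had no count. From 5.5 to 7 weeks the log2 difference changed by 1.30 for Ptgds (adjusted p = 0.00102), by -1.26 for Apod (0.0117) and by -2.28 for Kl (0.00157), all by edgeR. Ttr did not pass between 5.5 and 7 weeks (-1.19, adjusted p = 0.563 by edgeR).

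Values in the columns set aside exceeded their base library by more than 10 and, as a share of the column's total, the mock columns of the same week in 6 cases. The 7-week cuprizone replicate 1 listed 8349 for Ttr, 147 for Clic6, 70 for Folr1 and 356 for Kl, where its base listed 1295, 90, 42 and 105. The 5-week cuprizone replicate 2 listed 69 for Clic6 against a base of 35, and the 7-week cuprizone replicate 3 listed 557 for Dcn against 447, where the 7-week mock columns listed 546 to 551. No group had 4 usable libraries, so no library was tested as an outlier.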

How the results depend on the processing

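At 5.5 weeks 173 genes were higher and 63 lower. The counts were 381 and 162 with no filter on low counts, 100 and 36 with 1 CPM in all 5 libraries, and 614 and 175 in a fit of all 17 libraries as deposited, and 314 were higher with the 6 libraries of the week as deposited. Leaving out 1 library gave 49 to 189 higher and 16 to 85 lower. With replicate numbers as a replicate block (cuprizone and mock 1 and 3 share numbers), 481 were higher and 269 lower, and among the 10 genes Kl was gained (log2 0.60, adjusted p = 0.0214 by edgeR). Nothing in the labels says the numbers pair mice, and deviations of same-numbered libraries correlated at 0.0388 and -0.0803. At 5 weeks the 2-fold counts (1540 higher, 1976 lower) became 812 and 1272 at a mean of 5 CPM or more, and 2959 and 3760 genes passed in the fit of 9 libraries. At 7 weeks (2396 higher, 606 lower) the lower count was 159 with total counts and 350 with TMM over all libraries, the higher count 961 at 5 CPM or more, and 4860 and 3120 genes passed in the fit of 9. The cause was not tested, apart from the genes or libraries each setting removes. The share of higher among 2-fold genes at 7 weeks was 79.8%, 95.6% with total counts and 88.4% with TMM over all libraries. Among choroid list genes with a mean of at least 1 CPM, the median r with Ttr was 0.175 without the 7-week cuprizone library and 0.311 at 5.5 weeks alone.

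No gene of the 9 fitted changed sign at 5.5 weeks in its 15 or 16 alternatives. Ttr also missed the threshold with no filter (adjusted p = 0.369), in the fit of 9 libraries (0.214) and of 17 (0.0755), Apod with the 1 CPM filter (0.0529), and Igfbp2 with that filter (0.0647) and with the mean of mock 1 and 2 (0.0518). Clic6 was gained with no filter (0.0116) and in the fit of 17 (0.0212). These adjusted p are by edgeR. Over all alternatives, DESeq2 and limma included, the adjusted p ranged from 8.4e-07 to 0.369 for Ttr, 2.66e-09 to 0.234 for Apod, 0.00023 to 0.194 for Igfbp2 and 0.0116 to 0.399 for Clic6. Depth limits Folr1, Igf2, Kcnj13 and Aqp1, each with under 50 counts in every library used.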
